A study of Mus musculus with 3 samples.

Results

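The 40 genes described here encode the machinery of mitosis, and were chosen by name from a fixed list of genes of the G2 and M phases of the cell cycle. Earlier results of these data were known when the genes were chosen, so no test was run over the list. All 40 were among the 18245 genes of the deposited expression table, and all 40 passed the filter on low counts in each comparison. Messenger RNA was sequenced from 3 kinds of cultured mouse cell, which the labels place in the ventricular epicardium of C57BL/6 mice, with 3 libraries of each kind. Expression was compared between each pair of kinds.

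The first kind, CDC, are cardiosphere-derived cells, which grew out of epicardial explants of mice aged 6 weeks, formed floating spheres and were then plated on fibronectin. CDC-EpiC, the next kind, descends from an epithelial colony that was lifted with a cloning cylinder out of CDC cultures. Those cultures had been held for 2 weeks in SB-431542 at 10 µM, a compound that blocks the kinase activity of the type I receptor for TGF-beta. Its libraries come from 1 clone, so their spread does not hold the difference between clones. The last kind, pEpiC, are primary epicardial cells freed by enzymes from hearts of mice aged 6 to 8 weeks. CDC and pEpiC were grown on different coatings and in media with different amounts of serum, so the kind of cell and its culture cannot be told apart. CDC-EpiC alone was exposed to SB-431542 and picked as a colony, so its epithelial form, the compound and the picking cannot be told apart either. Against pEpiC, CDC-EpiC also differs in how the cells were isolated. The labels speak of 3 separate samples for RNA extraction without saying whether these were separate animals or cultures, and the study's methods name fewer biological replicates per condition than there are libraries. Values given with n = 3 are over libraries, and the p-values below measure the spread between these libraries, which may be technical.

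Library totals were 22008833 to 22756045 expected counts, which are estimated reads per gene. Summed markers of the epicardium were at 684 to 712 CPM (counts scaled to the library's total) in CDC, 5789 to 6752 in CDC-EpiC and 561 to 595 in pEpiC, led by Upk3b, although Krt8 was at most 0.29 TPM in CDC-EpiC. In TPM, which is scaled to transcript length, the sums were 538 to 584 in CDC, 4545 to 5162 in CDC-EpiC and 583 to 609 in pEpiC. CDC and pEpiC thus overlapped in TPM, and the order of their means (555 and 599) turned. Of these 10 markers, 5 were higher and 5 lower in pEpiC than in CDC at an adjusted p under 0.05 in edgeR. Of 9 tested in CDC-EpiC against CDC, 6 were higher and 2 lower. In CDC-EpiC against pEpiC, 7 were higher and 3 lower. In each direction, 34.2% to 41.5% of all genes tested passed in these comparisons. Summed macrophage markers were at 72.9 to 74.4 CPM in CDC and 30.1 to 32.9 in CDC-EpiC, where Ptprc had 0 counts, and at 878, 342 and 315 in pEpiC libraries 1, 2 and 3. 9 of the 10 macrophage markers were higher in pEpiC than in CDC, led by Lyz2. Summed endothelial markers were at 40.7 to 55.3 CPM in CDC, 9.16 to 11.9 in CDC-EpiC and 90.0 to 107.5 in pEpiC, led by Flt1. Summed cardiomyocyte markers were at 9.47 to 28.8, 11.7 to 13.7 and 138 to 154 CPM, and were mostly Tnnt2 in pEpiC, where Myh6, Myh7 and Myl2 had at most 3 counts in each library.

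A cell enters mitosis when the kinase CDK1, bound to a cyclin, is switched on. Other kinases, motors and scaffolds then condense and capture the chromosomes, build the spindle and divide the cytoplasm, and the anaphase-promoting complex marks cyclin B and securin for destruction so that the sister chromatids part. The genes for this machinery are transcribed late in the cell cycle, and in resting cells the DREAM complex represses many of them through a promoter element named CHR, the cell cycle genes homology region. The factor NF-Y binds CCAAT boxes upstream of it. The adult epicardium is largely quiescent in the healthy heart, and explant culture is used to expand its cells. In bulk RNA, fewer cells in division and less RNA per dividing cell cannot be told apart.

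Promoters were searched for these elements, which the choice of the genes by name did not use directly. Many genes of this class are known to carry them, as given above, so a high share among the 40 is not an independent result. RefSeq promoters on build GRCm38.p6, which run from 250 bases before to 50 bases after the transcript start, were at hand for 31 of the 40 genes (33 promoters). The CHR core TTTGAA, read on both strands, lay in the promoters of 25 of these 31 genes (80.6%) against 20.2% of all 27025 genes with a promoter. Within 50 bases of the start, 23 of 31 genes (74.2%) had it against 5.72% of all genes. The variant TTCGAA, which reads alike on both strands, lay in 3 of 31 (9.68%) against 1.8%, and CCAAT in 25 of 31 (80.6%) against 41.1%. A CHR core of either form together with CCAAT was found in 23 of 31 (74.2%) against 8.61%. These matches describe letters in a window, and binding was not measured.

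The stretches from 120 bases before to 30 bases after the start are shown for the kinase and cyclins of mitotic entry, with every CHR core and CCAAT box in capitals. TTCAAA and ATTGG are the same motifs on the other strand. In Cdk1, the mitotic kinase (chr10:69352883-69353032, minus strand), and in Ccnb2, a B-type cyclin (chr9:70421525-70421674, minus strand), CCAAT boxes precede a CHR core near the start. Ccnb1, the other B-type cyclin (chr13:100786457-100786606, minus strand), has a pair of CCAAT boxes and neither form of the core.
Cdk1: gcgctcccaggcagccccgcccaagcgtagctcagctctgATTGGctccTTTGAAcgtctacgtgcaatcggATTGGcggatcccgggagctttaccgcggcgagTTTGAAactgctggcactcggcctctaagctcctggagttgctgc
Ccnb2: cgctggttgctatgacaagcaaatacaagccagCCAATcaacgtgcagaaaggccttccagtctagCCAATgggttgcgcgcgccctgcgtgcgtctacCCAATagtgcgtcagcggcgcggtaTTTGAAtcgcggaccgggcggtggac
Ccnb1: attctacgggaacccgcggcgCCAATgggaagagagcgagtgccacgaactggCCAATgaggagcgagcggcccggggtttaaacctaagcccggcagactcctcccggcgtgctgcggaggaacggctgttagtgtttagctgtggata

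The same arrangement is shown for a spindle motor, for the conjugating enzyme and the activator of the anaphase-promoting complex, and for topoisomerase II. Kif11 lies at chr19:37376262-37376411 and Ube2c at chr2:164769809-164769958, both on the plus strand. Cdc20 lies at chr4:118437314-118437463 and Top2a at chr11:99024160-99024309, both on the minus strand. Mki67 (chr7:135716350-135716499, minus strand) is set beside them because its cores lie farther from the start.
Kif11: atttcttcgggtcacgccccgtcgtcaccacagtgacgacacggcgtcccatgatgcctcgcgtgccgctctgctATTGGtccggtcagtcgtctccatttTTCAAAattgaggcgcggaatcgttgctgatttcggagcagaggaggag
Ube2c: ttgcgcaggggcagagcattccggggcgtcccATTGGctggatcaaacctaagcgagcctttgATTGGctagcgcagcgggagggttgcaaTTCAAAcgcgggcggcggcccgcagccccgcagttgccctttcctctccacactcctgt
Cdc20: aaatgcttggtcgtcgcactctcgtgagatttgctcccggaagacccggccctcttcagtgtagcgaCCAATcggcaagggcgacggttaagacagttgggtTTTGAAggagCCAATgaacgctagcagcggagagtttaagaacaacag
Top2a: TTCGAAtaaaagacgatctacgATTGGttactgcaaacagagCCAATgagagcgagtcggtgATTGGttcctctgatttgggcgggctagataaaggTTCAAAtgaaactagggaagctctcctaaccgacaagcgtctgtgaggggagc
Mki67: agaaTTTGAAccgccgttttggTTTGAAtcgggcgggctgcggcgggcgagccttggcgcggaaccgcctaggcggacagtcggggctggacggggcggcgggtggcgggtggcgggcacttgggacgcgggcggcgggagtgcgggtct

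The distance from a CHR core to the nearest CCAAT box upstream of it could be taken in 22 genes. It had a median of 33.5 bases and a range of 9 to 153 bases, and lay between 20 and 50 bases in 14 of them. In 17 genes the promoter held at least 2 CCAAT boxes. Ccnb1 and Cenpe had CCAAT and no core, and Birc5, Nuf2 and Nusap1 had neither motif in this window. Of the 13 core subunits of the anaphase-promoting complex with a promoter in the table, 0 had a CHR core within 50 bases of the start, where 6.12% of all genes had it. It was found there in 4 of 32 DNA replication genes (12.5%) and in 27 of 50 further periodic mitosis genes (54%). The 24 mitosis genes with a core within 50 bases of the start had a median log2 change of −2.46 in pEpiC against CDC, and the 7 without had −2.63. That order turned with an offset for the trend with transcript length given below. The middle gene of the 7, Nuf2, then had −2.32, and the middle genes of the 24, Kif4 and Top2a, had −2.60. The difference between these groups was not tested.

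**Figure D1:**
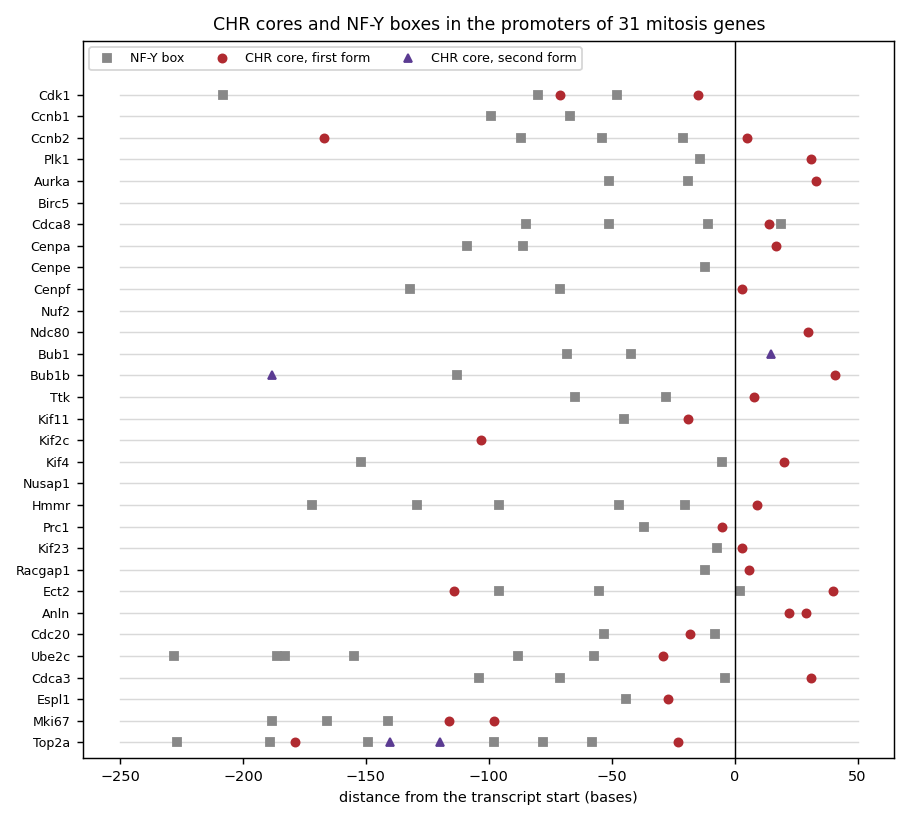
Position of CHR cores (first form TTTGAA, red circles; second form TTCGAA, purple triangles) and NF-Y boxes (CCAAT, grey squares) in the promoters of 31 mitosis genes, as distance in bases from the transcript start (vertical line). Most red circles lie within 50 bases of the start and grey squares lie mainly upstream of them, while Birc5, Nuf2 and Nusap1 have no symbol.

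All 40 genes were lower in pEpiC than in CDC at an adjusted p under 0.05 in edgeR, in a comparison in which 38.5% of all 13526 genes tested were lower. Each was at least 2-fold lower, which held for 14.4% of all genes, and in none did the libraries of the kinds overlap (38.3% of all genes were lower without overlap). The median log2 change of the 40 genes was −2.54, or 5.82-fold lower, beside 0.02 for all genes. The changes ran from −3.38 for Cenpa to −1.57 for Mki67, and 37 of the 40 fell in the lowest 5% of all log2 changes. On log2(TPM + 1), used without further scaling between libraries, the median was −1.93 and all 40 passed. That setting held no offset for the trend with transcript length given below.

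In CDC-EpiC against CDC, 38 of the 40 genes were lower, where 34.6% of all 12976 genes tested were lower. The median log2 change was −0.93 (1.90-fold lower), beside 0.003 for all genes. Of the 40, 17 were at least 2-fold lower (12.4% of all genes), and 39 were lower without overlap in CPM (35.6% of all genes). Ccnb2 and Bub1b did not pass, and no gene of the 40 was higher in the clone. None of the 40 lay in the lowest 5% of all log2 changes. Against a change of at least 1.5-fold, 32 of the 40 passed, and the share of all genes that did was not counted.

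In CDC-EpiC against pEpiC, 38 of the 40 genes were higher, where 40.3% of all 13547 genes tested were higher. The median log2 change was 1.61 (3.04-fold higher), beside −0.02 for all genes, with the largest value for Cdca3 (2.74, or 2.25 with an offset for transcript length, under which Bub1b was the largest at 2.40). Of the 40, 35 were at least 2-fold higher (15.8% of all genes) and 37 higher without overlap (41.3% of all genes). Cenpe and Mki67 did not pass. This comparison shares its libraries with the others. Ordered by mean CPM, 39 of the 40 genes ran from CDC through CDC-EpiC to pEpiC, and in 36 every library kept that order. By TPM these counts were 37 and 32. The share of all genes that keep this order was not counted.

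**Figure D2:**
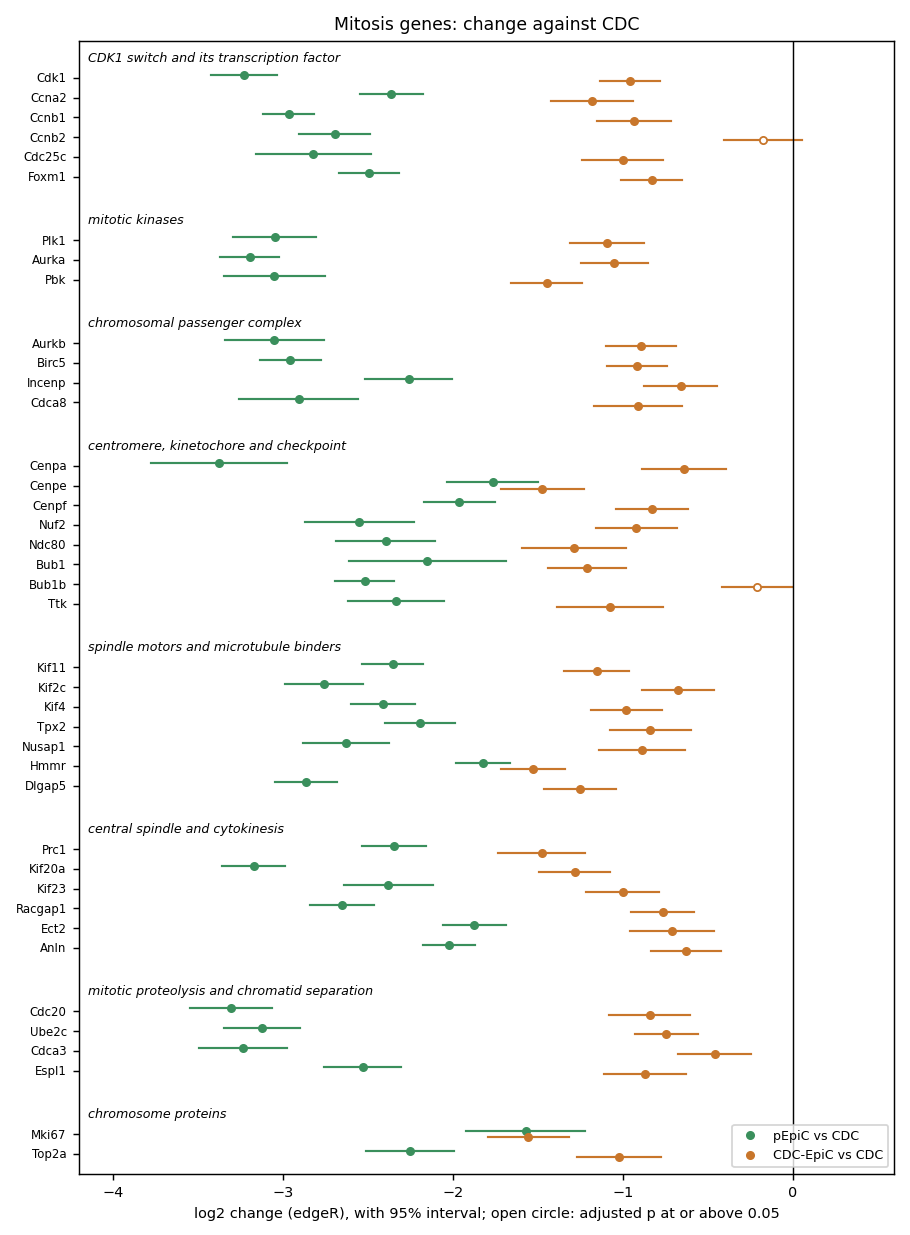
Log2 change of each of the 40 mitosis genes against CDC in edgeR, with its 95% interval, for pEpiC (green) and CDC-EpiC (orange), grouped by role. Filled circles passed an adjusted p of 0.05. The green circles run from −3.38 (Cenpa) to −1.57 (Mki67), the orange ones from −1.56 (Mki67) to −0.17 (Ccnb2), and the open circles are Ccnb2 and Bub1b.

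Levels of the whole machinery can be compared in TPM, which is scaled to transcript length and has the same sum in every library. The 40 genes together were at 2024, 1996 and 2032 TPM in CDC libraries 1, 2 and 3. They were at 1242, 969 and 1315 TPM in CDC-EpiC and at 479, 384 and 418 TPM in pEpiC. No ranges overlapped: CDC (2018 ± 18.7, SD, n = 3) stood at 1.72 times CDC-EpiC (1175 ± 183) and 4.72 times pEpiC (427 ± 48.0).

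Of the 6 genes of the CDK1 switch, 6 were lower in pEpiC and 5 in CDC-EpiC than in CDC. Cdk1 (NCBI Gene 12534), the kinase that drives entry into mitosis, had the highest mean TPM of them over the 9 libraries and the largest difference in pEpiC against CDC. Cdk1 was at 78.7, 82.6 and 75.2 TPM in CDC, at 45.8, 39.5 and 43.6 TPM in CDC-EpiC and at 12.4, 11.4 and 12.03 TPM in pEpiC. The kinds did not overlap. Its log2 change was −3.23 (SE 0.09, adjusted p 8.9e-10 in edgeR, 9.38-fold lower) in pEpiC against CDC and −0.96 (SE 0.08, adjusted p 7.7e-08) in CDC-EpiC against CDC. Of its partners and activators, Ccna2 (cyclin A2), Ccnb1 (cyclin B1), Cdc25c (the phosphatase that activates CDK1) and Foxm1 (a transcription factor of late cell cycle genes) were lower by log2 changes of −2.36 to −2.97 in pEpiC and of −0.83 to −1.18 in CDC-EpiC. Foxm1 itself went from 47.2 ± 1.33 TPM in CDC to 28.1 ± 3.52 in CDC-EpiC and 11.9 ± 0.857 in pEpiC (SD, n = 3).

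Ccnb2, cyclin B2, stood apart within this group. It was at 60.4, 61.5 and 60.3 TPM in CDC, at 62.8, 44.3 and 64.3 TPM in CDC-EpiC and at 15.02, 12.8 and 11.9 TPM in pEpiC. CDC-EpiC libraries 1 and 3 lay just above all CDC libraries and library 2 lay below them, while every pEpiC library lay far below. The log2 change in CDC-EpiC against CDC was −0.17 (95% interval −0.40 to 0.06, adjusted p 0.165 in edgeR), and that in pEpiC against CDC was −2.70 (SE 0.09, adjusted p 5.0e-09). Cyclin B1 was lower in the clone by a log2 change of −0.93 (95% interval −1.15 to −0.71), an interval that does not meet that of cyclin B2. The difference between the cyclins was not tested.

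The mitotic kinases were among the genes with the largest differences. Plk1, the polo-like kinase of centrosomes and kinetochores, was at 94.9, 83.0 and 81.2 TPM in CDC, at 44.2, 35.6 and 49.0 TPM in CDC-EpiC and at 16.8, 13.7 and 13.8 TPM in pEpiC. Aurka, Aurora kinase A of the spindle poles, was at 62.4, 57.2 and 59.1 TPM in CDC, at 31.3, 25.6 and 34.6 TPM in CDC-EpiC and at 9.44, 8.90 and 9.30 TPM in pEpiC. Neither gene overlapped between kinds. Aurka was 9.17-fold lower in pEpiC than in CDC (log2 −3.20, SE 0.08, adjusted p 4.9e-10 in edgeR) and 2.07-fold lower in CDC-EpiC (log2 −1.05, SE 0.09, adjusted p 8.6e-08). Plk1 and Pbk, a further kinase of mitotic cells, both had log2 changes of −3.05 in pEpiC, and of −1.09 and −1.45 in CDC-EpiC.

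The chromosomal passenger complex, which corrects faulty chromosome attachments and later guides cytokinesis, was lower in both other kinds. Birc5, or survivin, was its most abundant gene, at 99.9, 102 and 102 TPM in CDC, at 60.8, 50.4 and 59.6 TPM in CDC-EpiC and at 18.6, 15.7 and 15.8 TPM in pEpiC. Aurkb, its kinase Aurora B, was at 42.3, 43.5 and 44.8 TPM in CDC, at 24.2, 21.0 and 29.6 TPM in CDC-EpiC and at 9.30, 6.26 and 6.65 TPM in pEpiC. Both genes fell without overlap from CDC to CDC-EpiC and again to pEpiC. Aurkb differed most in pEpiC against CDC, at −3.05 on the log2 scale (SE 0.13, edgeR adjusted p 1.8e-08), followed by Birc5 (−2.96), Cdca8, which encodes borealin (−2.91), and the scaffold Incenp (−2.26). With an offset for transcript length the order was Aurkb (−2.77), Cdca8 (−2.48), Incenp (−2.30) and Birc5 (−2.18). In CDC-EpiC against CDC the 4 genes had log2 changes of −0.66 to −0.92, none of them 2-fold.

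Genes of the centromere, kinetochore and spindle checkpoint spanned the widest range of log2 changes in pEpiC against CDC, from −3.38 (Cenpa) to −1.77 (Cenpe). With an offset for transcript length they ran from −2.69 (Cenpa) to −2.20 (Ndc80). That span was narrower than the one of the central spindle and cytokinesis genes, from −3.27 (Kif20a) to −2.06 (Ect2). Cenpa, the histone H3 variant that marks centromeres, was at 81.3, 93.5 and 80.5 TPM in CDC, at 61.6, 43.3 and 63.3 TPM in CDC-EpiC and at 12.9, 7.50 and 10.8 TPM in pEpiC. It had the largest difference of all 40 genes in pEpiC against CDC (log2 −3.38, SE 0.18, adjusted p 7.9e-08 in edgeR, 10.4-fold lower) and one of −0.64 on the log2 scale in CDC-EpiC against CDC (SE 0.12, adjusted p 1.8e-04). With an offset for transcript length Cenpa had −2.69 in pEpiC against CDC and was no longer the gene that differed most. Nuf2 and Ndc80, subunits of the complex that grips microtubules, had log2 changes of −2.55 and −2.40 in pEpiC and of −0.92 and −1.29 in CDC-EpiC. Bub1 and Ttk, kinases of the checkpoint, had −2.15 and −2.33 in pEpiC and −1.21 and −1.07 in CDC-EpiC. The large kinetochore protein gene Cenpf had −1.96 and −0.83.

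Bub1b, which encodes the checkpoint protein BubR1, and Cenpe, the motor that brings chromosomes to the spindle equator, each missed the threshold in a comparison. Bub1b was at 29.4, 30.6 and 32.9 TPM in CDC, at 29.97, 22.9 and 32.2 TPM in CDC-EpiC and at 8.38, 7.37 and 7.18 TPM in pEpiC. CDC and CDC-EpiC overlapped in TPM, though not in CPM, and pEpiC lay below both. The log2 change of Bub1b in CDC-EpiC against CDC was −0.21 (SE 0.10, adjusted p 0.0671 in edgeR). It passed without CDC-EpiC library 3 (log2 −0.30, adjusted p 0.0256), with a transcript length offset (adjusted p 0.0409) and with the library number as a block (adjusted p 0.0423).

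Cenpe was at 9.47, 7.44 and 9.37 TPM in CDC, at 3.71, 2.68 and 3.61 TPM in CDC-EpiC and at 4.22, 3.23 and 3.46 TPM in pEpiC. Every CDC library lay above the others, which overlapped. Against CDC it was lower in pEpiC (log2 −1.77, SE 0.12, adjusted p 4.0e-07 in edgeR) and in CDC-EpiC (log2 −1.47, SE 0.11, adjusted p 2.0e-08), and CDC-EpiC against pEpiC gave 0.25 (95% interval −0.07 to 0.57, adjusted p 0.126). That difference passed without CDC-EpiC library 2 (log2 0.38, adjusted p 0.0232), without pEpiC library 1 (log2 0.38, adjusted p 0.0215), with the library number as a block (adjusted p 0.0288) and with a transcript length offset (log2 0.78, adjusted p 8.0e-04). On log2(TPM + 1) its direction turned (−0.10).

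Spindle motors and microtubule binders were lower in both kinds without exception. Tpx2, which activates Aurora A on the spindle, was the most abundant of them, at 73.5, 69.7 and 83.6 TPM in CDC, at 45.1, 33.8 and 52.5 TPM in CDC-EpiC and at 24.3, 19.8 and 24.9 TPM in pEpiC. Dlgap5, which stabilises the microtubules that hold kinetochores, was at 30.2, 31.5 and 34.3 TPM in CDC, at 14.0, 11.5 and 16.7 TPM in CDC-EpiC and at 6.35, 5.62 and 6.18 TPM in pEpiC. The kinds were separate for both genes. Dlgap5 differed most in pEpiC against CDC (log2 −2.87, SE 0.08, adjusted p 1.4e-09 in edgeR), and Kif2c, a kinesin that takes microtubules apart, followed with −2.76. Nusap1, Kif4 and Kif11, the motor that pushes the spindle poles apart, had −2.63, −2.41 and −2.35 in pEpiC and −0.89, −0.98 and −1.15 in CDC-EpiC.

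Hmmr, a spindle protein that also binds hyaluronan, was at 24.7, 22.7 and 24.7 TPM in CDC, at 9.74, 7.60 and 9.06 TPM in CDC-EpiC and at 10.2, 9.38 and 9.23 TPM in pEpiC. CDC-EpiC and pEpiC overlapped in TPM and in CPM. The log2 changes against CDC were −1.53 in CDC-EpiC and −1.82 in pEpiC. That in CDC-EpiC against pEpiC was 0.25 (SE 0.10, adjusted p 0.0371 in edgeR), and on log2(TPM + 1) it turned to −0.12 (adjusted p 0.282). It also lost the threshold in DESeq2 (adjusted p 0.0794), with the stricter count filter (0.0685), on log2(FPKM + 1) (0.0934), and without CDC-EpiC library 1 (0.127) or 3 (0.0683) or pEpiC library 2 (0.118) or 3 (0.106).

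The genes of the central spindle and of cytokinesis were all lower in both other kinds. Kif20a, the motor that carries the passenger complex to the central spindle, was at 83.3, 82.5 and 83.6 TPM in CDC, at 39.7, 29.3 and 39.6 TPM in CDC-EpiC and at 12.6, 11.8 and 14.4 TPM in pEpiC. The CDC libraries differed by little and no kinds overlapped. Kif20a was 9.01-fold lower in pEpiC than in CDC (log2 −3.17, SE 0.08, adjusted p 8.6e-10 in edgeR) and 2.43-fold lower in CDC-EpiC (log2 −1.28, SE 0.10, adjusted p 1.6e-08). Kif23 and Racgap1, which form centralspindlin, had log2 changes of −2.38 and −2.65 in pEpiC, and both were lower in CDC-EpiC too, Racgap1 by the smaller change (−0.76). Ect2, the exchange factor that activates RhoA at the cell equator, and Anln, the scaffold anillin of the contractile ring, had −1.87 and −2.02 in pEpiC and −0.71 and −0.63 in CDC-EpiC. Prc1, which bundles the microtubules of the central spindle, was the gene of this group with the largest fall in CDC-EpiC (log2 −1.48, SE 0.12, adjusted p 3.3e-08).

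The genes of mitotic proteolysis were lower in both other kinds. Ube2c, which had the highest mean TPM of the 40 genes in each kind, the conjugating enzyme of the anaphase-promoting complex, was at 226, 232 and 209 TPM in CDC, at 144, 127 and 152 TPM in CDC-EpiC and at 40.1, 33.5 and 35.0 TPM in pEpiC. Cdc20, which activates the complex in metaphase, was at 115, 109.9 and 94.8 TPM in CDC, at 64.4, 52.1 and 73.1 TPM in CDC-EpiC and at 15.4, 15.6 and 14.8 TPM in pEpiC. Neither gene overlapped between kinds. Cdc20 differed by −3.31 on the log2 scale in pEpiC against CDC (SE 0.11, edgeR adjusted p 3.3e-09, 9.90-fold lower) and by −0.84 in CDC-EpiC against CDC (SE 0.11, adjusted p 7.2e-06). Cdca3, a cell cycle gene that helps trigger mitotic entry, had −3.24 in pEpiC but −0.46 in CDC-EpiC, the smallest fall among the genes of the 40 that passed there. Espl1, the protease separase that cuts cohesin, had −2.53 and −0.87.

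The chromosome proteins Mki67 and Top2a are common markers of dividing cells. Top2a, which untangles DNA before the chromatids part, was at 61.2, 54.9 and 69.9 TPM in CDC, at 36.0, 24.7 and 36.3 TPM in CDC-EpiC and at 21.9, 16.7 and 16.6 TPM in pEpiC. Mki67, the Ki-67 protein that coats mitotic chromosomes, was at 31.3, 25.5 and 32.6 TPM in CDC, at 12.2, 8.60 and 11.5 TPM in CDC-EpiC and at 18.3, 11.7 and 12.4 TPM in pEpiC. Top2a kept the order of most of the other genes. Mki67, like Cenpe and Hmmr, was lowest in CDC-EpiC by mean TPM, with CDC-EpiC library 1 above pEpiC library 2. Mki67 had the smallest difference of the 40 genes in pEpiC against CDC (log2 −1.57, SE 0.16, adjusted p 6.9e-06 in edgeR) and the largest in CDC-EpiC against CDC (log2 −1.56, SE 0.11, adjusted p 7.6e-09). With an offset for transcript length the value in pEpiC against CDC was −2.17, and Hmmr (−1.99) and Ect2 (−2.06) had smaller ones. CDC-EpiC against pEpiC gave −0.02 (95% interval −0.41 to 0.37, adjusted p 0.9). That value was 0.10 without CDC-EpiC library 2, 0.21 without pEpiC library 1, and 0.60 with a transcript length offset, where it passed (adjusted p 0.0122).

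**Figure D3:**
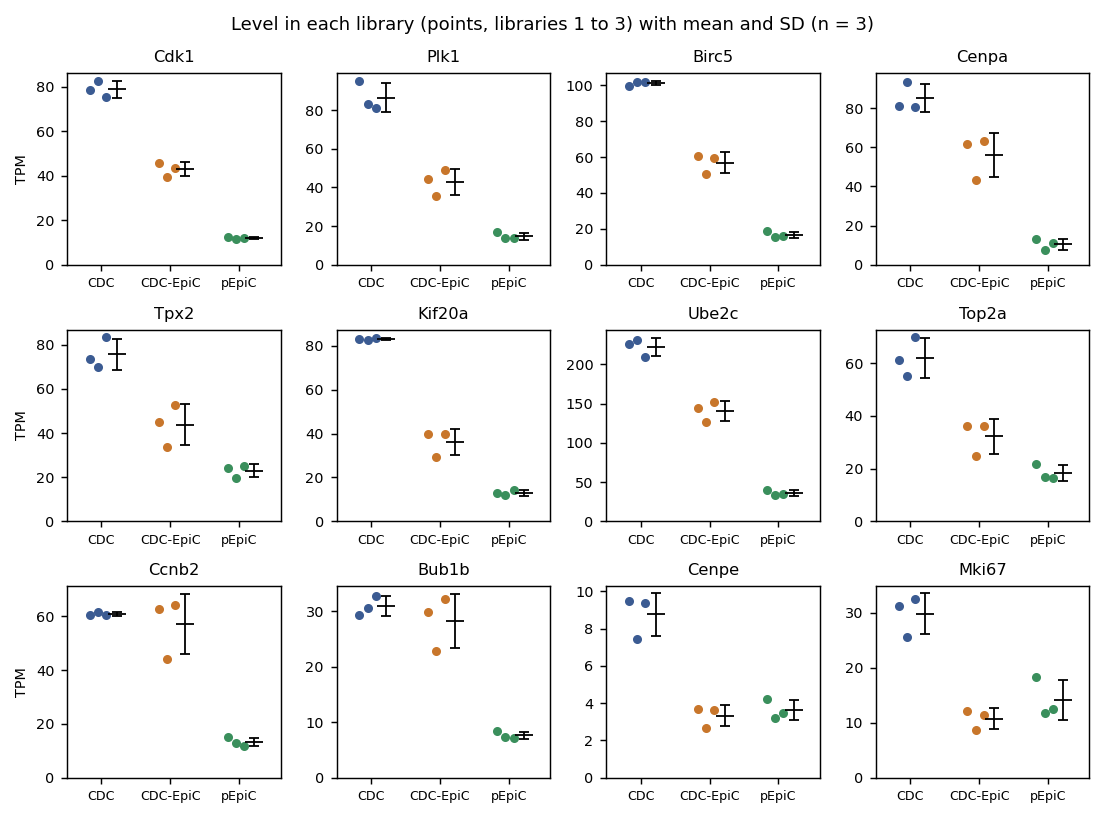
Level in TPM of 12 mitosis genes in each library (points, libraries 1 to 3 of a kind from left to right), with mean and SD (n = 3). Cdk1, Plk1, Birc5, Cenpa, Tpx2, Kif20a, Ube2c and Top2a step down from CDC to CDC-EpiC to pEpiC, Ccnb2 and Bub1b are about as high in CDC-EpiC as in CDC, and Cenpe and Mki67 are about as low in CDC-EpiC as in pEpiC.

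The size of the difference between pEpiC and CDC followed transcript length. Over 10688 genes, the log2 change of pEpiC against CDC rose by 0.441 for each doubling of the transcript length that counts and FPKM imply, and over the 40 mitosis genes it rose by 0.451. Across these 40 genes, which share the same libraries and are not independent, Pearson's r was 0.775 and Spearman's rho 0.779. The 10 shortest genes (912 to 1945 bases, Ube2c and Cenpa among them) had a median log2 change of −3.09, and the 10 longest (4115 to 10750 bases, Mki67, Cenpe and Cenpf among them) one of −2.20. With an offset for transcript length the medians were −2.58 and −2.60, the slope over the 40 genes was 0.0111, all 40 remained lower with values of −3.27 to −1.99, and their median was −2.60. The offset moved Ube2c from −3.12 to −2.23, Birc5 from −2.96 to −2.18 and Cenpf from −1.96 to −2.61, and the largest values were then those of Kif20a (−3.27) and Cdk1 (−3.21). CDC-EpiC against pEpiC had slopes of −0.436 over all genes and −0.565 over the 40, with medians of 2.22 for the 10 shortest genes and 1.17 for the 10 longest, and of 1.66 and 1.55 with the offset. In that comparison the offset moved Ube2c from 2.34 to 1.54, Birc5 from 2.00 to 1.29, Cenpa from 2.70 to 2.06 and Cenpf from 1.09 to 1.79. CDC-EpiC against CDC had a slope of 0.0063 over all genes and of −0.115 over the 40.

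**Figure D4:**
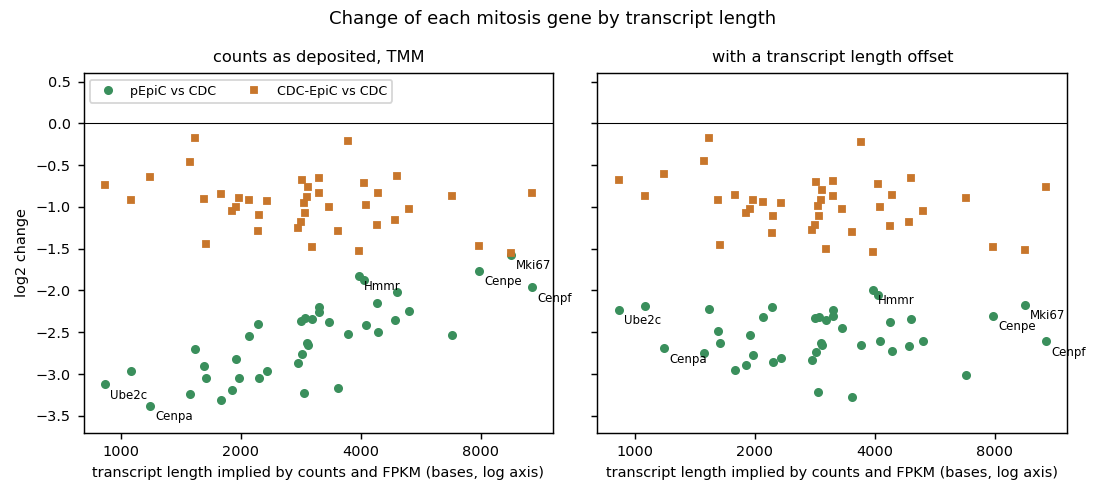
Log2 change against CDC of each of the 40 mitosis genes (pEpiC, green circles; CDC-EpiC, orange squares) by transcript length in bases, on a log axis, without (left) and with (right) an offset for length. On the left the green circles climb with length, from Ube2c and Cenpa to Cenpe and Mki67, and on the right they run level. Every symbol lies below 0 in both panels.

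The 40 genes also moved together between libraries of a kind. CDC-EpiC library 2 was the lowest of its kind for 40 of the 40 genes (33.2% of all genes above 5 CPM), at a median of 0.773 times the other libraries. In pEpiC, library 1 was the highest for 36 of the 40 (34.8% of all such genes), at a median of 1.21 times the others, and library 2 the lowest for 36. No CDC library stood apart, with medians of 0.977 to 1.03. The summed macrophage markers were highest in pEpiC library 1 too, as given above, and their part in these values was not tested. Without pEpiC library 1 all 40 genes were lower than in CDC and their median log2 change was −2.67. Without CDC-EpiC library 2, 38 genes were lower than in CDC and the median was −0.83.

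**Figure D5:**
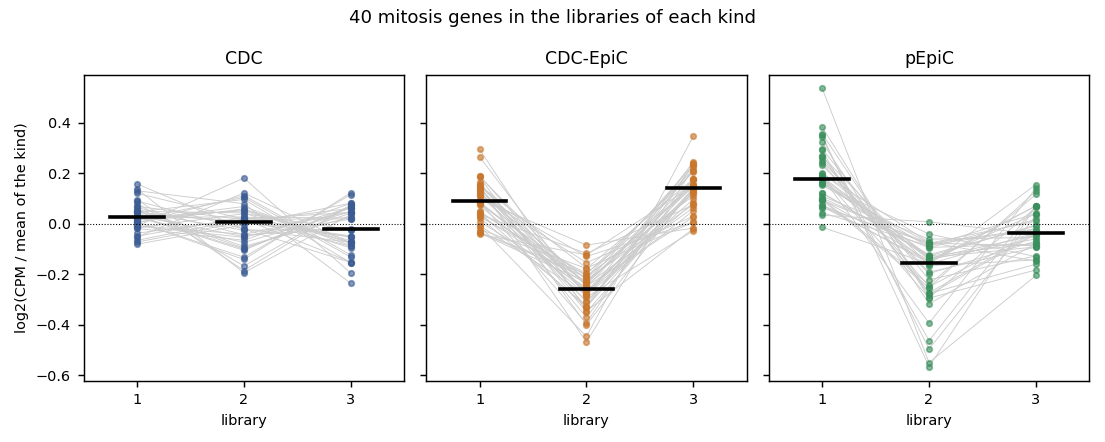
Level of each of the 40 mitosis genes in each library as log2 of its CPM over the mean of its kind, with a grey line per gene and a black bar at the median. The CDC medians lie near 0, CDC-EpiC library 2 lies below 0 for every gene, and pEpiC library 1 lies highest.

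Other genes of the same pathway were read from the same fits. Of all genes tested, 38.5% were lower and 39.8% higher in pEpiC than in CDC, and 34.6% were lower and 34.2% higher in CDC-EpiC than in CDC. In CDC-EpiC against pEpiC, 40.3% of all genes were higher and 41.5% lower. Of 59 further genes with periodic expression in mitosis, 58 were lower in pEpiC and 57 in CDC-EpiC than in CDC, and 55 were higher in CDC-EpiC than in pEpiC, with median log2 changes of −2.47, −0.95 and 1.37. Cenpm, of the inner kinetochore, fell most in pEpiC (log2 −3.68, SE 0.14, adjusted p 8.6e-09 in edgeR), and Depdc1a fell most in CDC-EpiC (log2 −1.97, SE 0.12, adjusted p 1.2e-09). Kif2a, a microtubule depolymerase also used outside mitosis, did not pass in pEpiC against CDC (log2 0.06, adjusted p 0.362). Kif2a was lower in CDC-EpiC than in pEpiC (log2 −0.66, SE 0.06, adjusted p 1.7e-06).

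The core subunits of the anaphase-promoting complex, which Cdc20 and Ube2c serve, did not share this pattern. Of 14 subunits, 5 were higher and 9 lower in pEpiC than in CDC (median log2 −0.27), and 6 were higher and 4 lower in CDC-EpiC than in CDC (median 0.08). Their summed level was 961 ± 11.0 TPM in CDC, 1298 ± 27.1 in CDC-EpiC and 1095 ± 10.4 in pEpiC (SD, n = 3). By this sum the subunits were lowest in CDC, while the edgeR median lay below 0 in pEpiC against CDC. In CDC-EpiC, Anapc1 was higher than in CDC (log2 1.63, SE 0.08, adjusted p 1.6e-10 in edgeR) and so was Anapc13 (0.99), while Anapc15 was lower (−0.84). In pEpiC, Cdc27 was higher than in CDC (log2 0.74, SE 0.07, adjusted p 3.5e-06) and Anapc10 lower (−1.16). Under the length offset the pEpiC values of Anapc1, Anapc13 and Anapc15 against CDC turned direction.

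Cohesin holds the sister chromatids together until separase (Espl1) cuts it. Of 10 genes of cohesin and its regulators, 8 were higher and 1 lower in pEpiC than in CDC (median log2 0.63), and 1 was higher and 2 lower in CDC-EpiC than in CDC (median −0.13). Over all genes the change in pEpiC against CDC rose with transcript length, as given above, and its part in this median was not tested. The loader gene Nipbl rose most in pEpiC (log2 1.13, SE 0.07, adjusted p 3.4e-07 in edgeR), and the gene for the subunit that separase cuts, Rad21, was the one that fell (log2 −0.67, SE 0.08, adjusted p 1.9e-05). In CDC-EpiC against CDC the gene that rose was Mau2, the partner of Nipbl (log2 0.62, SE 0.07, adjusted p 1.4e-06).

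The 40 genes for DNA replication, which act earlier in the cycle, moved in the same direction as the mitosis genes. In pEpiC against CDC, 40 of 40 were lower (median log2 −2.21), and in CDC-EpiC against CDC 34 were lower and 1 higher (median −0.79). Their summed TPM in CDC was 3.06 times that in pEpiC and 1.47 times that in CDC-EpiC, against 4.72 and 1.72 times for the mitosis genes. The helicase gene Mcm5 fell most in pEpiC (log2 −3.36, SE 0.10, adjusted p 2.3e-09 in edgeR). Ccne1, cyclin E1 of the entry into S phase, fell most in CDC-EpiC (log2 −2.66, SE 0.10, adjusted p 7.2e-12). Chaf1b, of the factor that assembles chromatin behind the fork, was the one that rose in CDC-EpiC against CDC (log2 0.25, SE 0.07, adjusted p 0.00635).

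The regulators that act on these promoters were mixed. Of 18 genes of the DREAM and MuvB complexes, the E2F factors and the retinoblastoma family, 3 were higher and 10 lower in pEpiC than in CDC, and 4 were higher and 10 lower in CDC-EpiC than in CDC. Mybl2, or B-Myb, which activates mitotic genes with MuvB, was at 17.7, 16.2 and 13.7 TPM in CDC, at 10.4, 8.81 and 12.8 TPM in CDC-EpiC and at 3.33, 2.25 and 2.08 TPM in pEpiC. Rbl2, the p130 subunit of the repressing DREAM complex, was at 9.75, 9.11 and 13.3 TPM in CDC, at 12.4, 11.4 and 12.6 TPM in CDC-EpiC and at 38.2, 37.6 and 36.1 TPM in pEpiC. They had the largest fall and the largest rise of the list in pEpiC against CDC, with log2 changes of −3.13 (SE 0.18, adjusted p 1.2e-07 in edgeR) and 1.30 (SE 0.10, adjusted p 1.1e-06). Rbl1, the p107 relative of Rbl2, and Lin9 and Rbbp4 of MuvB, named after their values were seen, were lower in pEpiC (log2 −1.07, −1.09 and −0.66). In CDC-EpiC against CDC, Mybl2 had −0.66 (SE 0.12, adjusted p 2.2e-04) and Rbl2 did not pass (0.10, adjusted p 0.402). Rb1, the retinoblastoma gene, was lower in CDC-EpiC than in CDC (log2 −1.60, SE 0.09, adjusted p 3.3e-10), and Tfdp2, a partner of E2F factors, was higher (1.05, SE 0.09, adjusted p 3.5e-08).

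Inhibitors of the cyclin-dependent kinases split by kind. Cdkn2a had 0 counts in all CDC and CDC-EpiC libraries and 127, 140 and 154 counts in pEpiC, which was at least 44.7-fold higher than CDC when 3 counts per library are taken as the limit. Cdkn2b had 0 counts in CDC, at most 1 count in a CDC-EpiC library and 30.9, 36.0 and 36.1 TPM in pEpiC, at least 143-fold higher than CDC by the same limit. Both genes hold back the kinases of the G1 phase, and a link between them and the level of the mitosis genes was not tested. Cdkn1c was also higher in pEpiC than in CDC (log2 3.45, SE 0.30, adjusted p 2.2e-06 in edgeR). Cdkn1a, the p21 gene, was at 462, 438 and 421 TPM in CDC, at 77.1, 87.0 and 86.4 TPM in CDC-EpiC and at 386, 383 and 429 TPM in pEpiC. It was lowest in the clone (log2 −2.48 against CDC, SE 0.09, adjusted p 2.8e-12), so that the mitosis genes and Cdkn1a were both lower in CDC-EpiC than in CDC.

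The other inhibitors and the D cyclins, which start the cycle from G1, varied. Cdkn2c and Cdkn2d were lower in pEpiC than in CDC (log2 −2.06 and −2.22), and Cdkn2d was also lower in CDC-EpiC (−0.96). Cdkn1b did not pass in pEpiC against CDC (0.03, adjusted p 0.697 in edgeR) and was higher in CDC-EpiC (0.35, adjusted p 0.0014). Ccnd1 was at 110.3, 106.6 and 111 TPM in CDC, at 63.6, 72.1 and 71.2 TPM in CDC-EpiC and at 59.6, 52.5 and 58.6 TPM in pEpiC, the order of the mitosis genes by mean. Ccnd2 was lower in CDC-EpiC than in CDC (log2 −1.81) and Ccnd3 was lower in both kinds (−1.01 in CDC-EpiC and −0.91 in pEpiC). Ccnd2 in pEpiC against CDC had −0.35 (adjusted p 0.00987), a direction that turned on log2(TPM + 1), at 0.14.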

How the data were processed

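Poly(A) RNA of CDC, CDC-EpiC and pEpiC was captured on oligo(dT) and copied from random hexamers, and a BGISEQ-500 gave paired reads of 100 bases. The submitters' processing notes name HISAT2 2.0.4, Bowtie2 2.2.5, RSEM 1.2.12 and DESeq2 1.4.5. They give the mm10 build. Whether strand was used in counting is not given in the sources used here, so overlapping and antisense genes and near-identical copies are uncertain. For each of 9 libraries FPKM, TPM and expected counts were deposited by the authors, and 30.3% of the expected counts were not whole. The 9 columns of group means were not used.

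Expected counts were rounded and fitted in edgeR 4.0.16 (R 4.3.3) for each pair of kinds (6 libraries), with filterByExpr (minimum count 10, minimum total 15), TMM normalization and the quasi-likelihood test (glmQLFit, glmQLFTest). The Benjamini-Hochberg adjustment ran over all genes tested, with a threshold of 0.05. The standard error is that of the fitted log2 change. CPM were scaled by TMM over all 9 libraries. Transcript length was the one that counts and FPKM imply together, and its offset was a lowess curve of log ratio on length. The fit was also run on simulated data in which 200 genes were changed. These held fewer changed genes than the real data and no trend with transcript length, so the run does not bear on either. Counts differed between libraries of a kind by 4.72 to 21.8 in chi-square per degree of freedom, more than sampling of reads gives, so each library was counted once. Standard errors and 95% intervals come from the edgeR fits and hold the spread between libraries. The limits set by 3 counts cover counting error alone, since PCR copies are not independent molecules.

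The members and lists were chosen with earlier results of these data known. Library values are given, in each role, for the most abundant member and the one with the largest change in pEpiC against CDC, and for members that missed the threshold. Library values of Hmmr, Mybl2 and Rbl2 were added after they were seen. Of other lists, the largest rise and fall in each comparison, with every D cyclin and CDK inhibitor, were named. Promoters are those of RefSeq on GRCm38.p6. The alternatives were DESeq2 1.42.0, RLE normalization, all 9 libraries in a fit, a minimum of 10 counts per library, no filter, log2(TPM + 1), log2(TPM + 0.1) and log2(FPKM + 1) in limma 3.58.1, the length offset, a 1.5-fold test, the library number as a block and leaving out each library. Python 3.11.15, pandas 2.3.3, NumPy 2.4.6 and matplotlib 3.10.9 made the tables and figures.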

Additional observations from a re-analysis of the deposited data

How the results depend on the processing

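The number of mitosis genes past the threshold was 40 under every alternative run for pEpiC against CDC, 32 to 39 for CDC-EpiC against CDC and 36 to 40 for CDC-EpiC against pEpiC, and none of their medians changed sign. The median log2 change of pEpiC against CDC moved from −2.54 to −1.93 on log2(TPM + 1), −2.04 on log2(TPM + 0.1) and −2.13 on log2(FPKM + 1), and that of CDC-EpiC against pEpiC from 1.61 to 1.12, 1.22 and 1.31 in the same order. With 1 library left out, the medians ranged from −2.67 to −2.49 in pEpiC against CDC, −1.02 to −0.83 in CDC-EpiC against CDC and 1.52 to 1.73 in CDC-EpiC against pEpiC. The genes of the other lists past the threshold in CDC-EpiC against CDC fell from 125 to 77 in the 1.5-fold test, which asks for more than a difference. Over all genes above 5 CPM, libraries with the same number did not deviate together, with correlations of −0.10 to 0.16. These correlations do not cover the 40 genes alone, for which library 2 was the lowest in 40 genes in CDC-EpiC, 36 in pEpiC and 16 in CDC. Whether the numbers pair the libraries for these genes was not tested. With the library number as a block the counts were 40, 39 and 39 and the medians −2.55, −0.94 and 1.60, and the block moved Bub1b and Cenpe past the threshold.

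Single genes turned direction as follows, and the cause was not tested. In pEpiC against CDC the length offset gave −0.028 for Kif2a, −0.085 for Anapc1, 0.58 for Anapc15, 0.50 for Anapc13, −0.14 for Tfdp2 and −0.25 for Rb1, and TPM with either pseudocount gave 0.11 for Anapc15 and 0.14 for Ccnd2. With 1 library left out, Rb1 ranged from −0.030 to 0.040 and turned without CDC library 2 or pEpiC library 2 or 3, and Cdkn1b ranged from −0.030 to 0.085 and turned without CDC library 1. In CDC-EpiC against CDC, Nipbl ranged from −0.15 to 0.0087 and turned without CDC library 3. In CDC-EpiC against pEpiC, TPM gave −0.10 and −0.13 for Cenpe, −0.12 and −0.13 for Hmmr, −0.20 and −0.27 for Lin9, −0.11 for Rad21 and −0.10 for Cdkn1b at both pseudocounts, the length offset gave 0.60 for Mki67, 0.23 for Smc2 and −0.13 for Anapc10, and Mki67 ranged from −0.16 to 0.21 with 1 library left out, turning without CDC-EpiC library 2 (0.10) or pEpiC library 1 (0.21). Of all values of single genes under the alternatives, 3628 kept direction and side of the threshold, 81 lost it, 29 gained it and 30 turned direction. With 3 libraries a kind, the number of libraries limits the precision.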

Other observations

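The condensins, which compact the chromosomes as mitosis begins, were looked at within the further periodic genes after their values had been seen. Smc4, a core ATPase, was at 36.4, 38.6 and 40.8 TPM in CDC, at 16.6 to 20.7 TPM in CDC-EpiC and at 34.4, 36.5 and 34.6 TPM in pEpiC. The CDC-EpiC libraries lay below all others, and CDC and pEpiC overlapped in TPM. The log2 change of Smc4 against CDC was −1.09 (SE 0.08, adjusted p 2.0e-08 in edgeR) in CDC-EpiC. In pEpiC it was −0.64 (SE 0.06, adjusted p 2.7e-06), a call that was lost on log2(TPM + 1) (−0.13, adjusted p 0.104). Its partner Smc2 had −1.51 in CDC-EpiC and −1.42 in pEpiC. Ncapd2 and Ncaph, subunits of condensin I, had −0.38 and −0.51 in CDC-EpiC and −2.47 and −2.43 in pEpiC. Of all genes tested, 34.6% were lower in CDC-EpiC and 38.5% in pEpiC than in CDC.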
